A study of Mus musculus with 4 samples.

Results

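Cenpa, Sertad1, Kif18a, Plk2 and Plk3 are genes known for roles in cell division or in the control of the cell cycle, and all 5 gave higher signals in the mouse dentate gyrus (DG) 1 h after electroconvulsive stimulation (ECS). They were selected on measured values: the rule took genes of this kind whose signals were higher 1 h after ECS, in single ECS against sham and in 11 ECS against 10 ECS, so the direction of both 1 h comparisons below was fixed by the selection and is given as a description. The 5 genes are 5 of the 12393 genes that the Affymetrix 430A 2.0 mouse arrays measured with a probe set naming a single gene. Each of the 5 is covered by 1 probe set, so no second probe set of the same gene could be set beside any of them.

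The study asked how the DG responds to a first ECS and to a further ECS after repeated treatment. The labels give C57Bl/6 mice, and the study's methods give adult males of C57BL/6J or C57BL/6N for its wild-type experiments, without saying which of the substrains these arrays used. The 4 groups were DG taken 1 h after a single ECS, DG taken 1 h after a single sham session (handling and isoflurane without shock), DG taken 1 h after the last of 11 ECS, and DG taken 48 h after the last of 10 ECS, referred to as single ECS, sham, 11 ECS and 10 ECS. ECS was bilateral, through ear clips at 25 mA under isoflurane, on a schedule of 4 sessions a week over 3 weeks. Per the study's methods the RNA was that of a PCR experiment in which the 10 ECS mice had a sham session 1 h before dissection. Per the series' design text, RNA of 3 mice per group was pooled onto 1 array, so there is no spread between animals, no test is possible, and a fold change compares 4 arrays and nothing more. The titles, source names and treatment labels gave the groups. The free-text descriptions of 3 of the 4 arrays name a different treatment, such as fluoxetine for the 11 ECS array.

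The DG is made up mostly of granule cells (GCs), neurons that no longer divide, with a thin layer of dividing progenitors at its inner edge. Centromere protein A, encoded by Cenpa, is the histone H3 variant that marks the place on each chromosome where the kinetochore forms. Kif18a encodes a kinesin-8 motor that moves toward microtubule plus ends and helps to align chromosomes on the spindle. Sertad1 encodes a nuclear coregulator that binds the cyclin-dependent kinase CDK4 and stimulates transcription by E2F and its DP partners. Plk2 and Plk3 belong to the polo-like kinases, a family named for a mitotic kinase of the fly. Plk2 and Plk3 were also found early on as serum-inducible and activity-inducible genes, and in neurons Plk2 is known to act on dendritic spines and in homeostatic weakening of synapses. In neurons, many genes induced within an hour of activity carry a cyclic AMP response element (CRE, TGACGTCA) near their start, which the factor CREB binds.

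The windows from 250 bases before to 50 bases after the start site (RefSeq, GRCm38.p6) are shown for the 4 genes in which a searched motif was found, so that the letters can be set beside the ratios that follow. Capitals mark matches on either strand to the CRE, to its core TGACG, to an E2F motif (TTTGGCGC or TTTCCCGC), to the cell cycle element CHR (TTTGAA) and to CCAAT.
Kif18a (chr2:109280488-109280787, plus strand): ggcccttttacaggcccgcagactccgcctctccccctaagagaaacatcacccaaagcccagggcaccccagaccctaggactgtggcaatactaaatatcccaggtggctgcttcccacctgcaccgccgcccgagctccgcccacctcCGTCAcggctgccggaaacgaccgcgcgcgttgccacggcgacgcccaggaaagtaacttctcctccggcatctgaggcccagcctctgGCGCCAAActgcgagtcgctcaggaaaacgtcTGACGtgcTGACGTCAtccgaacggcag
Plk2 (chr13:110394794-110395093, plus strand): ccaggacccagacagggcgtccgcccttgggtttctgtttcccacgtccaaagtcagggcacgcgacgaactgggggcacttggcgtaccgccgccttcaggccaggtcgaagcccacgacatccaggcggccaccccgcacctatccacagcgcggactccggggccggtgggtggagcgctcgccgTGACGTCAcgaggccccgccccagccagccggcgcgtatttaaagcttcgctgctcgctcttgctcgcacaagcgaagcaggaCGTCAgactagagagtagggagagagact
Plk3 (chr4:117133914-117134213, minus strand): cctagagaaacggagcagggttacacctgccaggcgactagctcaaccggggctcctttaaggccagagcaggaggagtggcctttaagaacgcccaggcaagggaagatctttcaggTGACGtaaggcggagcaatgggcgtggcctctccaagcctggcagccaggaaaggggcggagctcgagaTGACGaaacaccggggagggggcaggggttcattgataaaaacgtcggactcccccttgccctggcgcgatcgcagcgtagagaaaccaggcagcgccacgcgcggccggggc
Cenpa (chr5:30666636-30666935, plus strand): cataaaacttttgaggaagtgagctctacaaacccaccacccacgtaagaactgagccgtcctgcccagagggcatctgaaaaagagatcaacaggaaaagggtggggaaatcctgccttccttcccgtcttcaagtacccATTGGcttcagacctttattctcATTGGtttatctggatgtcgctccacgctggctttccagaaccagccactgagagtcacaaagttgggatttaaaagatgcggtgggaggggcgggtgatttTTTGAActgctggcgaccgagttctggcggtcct
A full CRE stood in the Kif18a window, from base 30 to base 37 after the start-site base, and in the Plk2 window, from base -62 to base -55, counting the start-site base as 0. Of all 32851 promoter windows in the table, 1.79% held one. The core TGACG, which is also contained in the full CRE, was found in the Kif18a, Plk2 and Plk3 windows, and 20.8% of all windows held it. In Plk3 the core occurred 2 times, starting at base -132 and at base -63, and no full CRE was found. The E2F motif was found in 1 of the 5 windows, that of Kif18a, from base -10 to base -3, against 1.56% of all windows. The Cenpa window held neither the CRE nor its core. It held the CHR at base 16 (17.9% of all windows) and CCAAT 2 times (37.4%), elements known from promoters of genes used in mitosis. The Sertad1 window, at chr7:27486703-27487002 on the plus strand, held none of the motifs searched. No window of the 5 held an AP-1 site (TGANTCA, 7.81% of all windows), an Egr site (GCGNGGGCG, 5.55%), a CArG box (1.63%) or TATAAA (13.6%). Such a match describes letters in the window and shows no binding, and the absence of a match says only that these letters are not there.

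**Figure D1:**
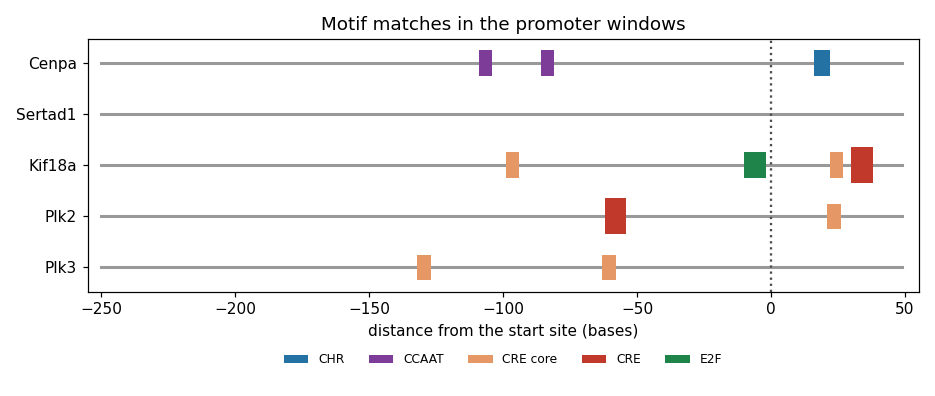
Motif matches in the promoter windows of the 5 genes, drawn by distance from the start site in bases (dotted line at 0, transcription runs to the right). Red boxes are full CREs, orange boxes CRE cores (TGACG), green E2F, blue CHR and purple CCAAT. The full CRE appears in Kif18a and Plk2 only, and Sertad1 has no box.

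After the first ECS, all 5 genes were at least 2-fold higher than after sham, which the selection required in direction. Over all genes above the floor on at least 1 of the 2 arrays, 1.2% were at least 2-fold higher in this comparison (122 of 10134). The floor was 12 units: a signal under it, the 25th percentile of all signals, was set to 12, and a ratio with such a value on 1 side is a bound, written as "at least". The median gene was 0.24 log2 units lower after single ECS than after sham, so the deposited arrays are not centred on each other and the ratios below are not corrected for this. For comparison, probe sets of the same gene differed by a pooled SD of 0.29 log2 units in this comparison, a measure that includes probe differences but no differences between animals.

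Cenpa gave a signal of 1237.5 in the single ECS array, against 45.8 in the sham array. The ratio was 27.0-fold (log2 4.76), which placed this centromeric histone 5th of 10134 genes. Its signal was 394.8 in the 11 ECS array, against 25.6 in the 10 ECS array, a 15.4-fold ratio (log2 3.95) and again rank 5, of 10046 genes. Both 1 h ECS arrays lay far above both of the others for Cenpa, and the 11 ECS signal was 31.9% of the single ECS signal.

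Sertad1 gave 720.3 in the single ECS array, against 58.5 in the sham array, a ratio of 12.3-fold (log2 3.62) at rank 10. It gave 359.2 in the 11 ECS array, against 85.1 in the 10 ECS array, a ratio of 4.22-fold (log2 2.08) at rank 20. The CDK4-binding coregulator was thus among the 20 highest ratios in each 1 h comparison.

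Plk2 had the signals farthest above the floor of the 5 genes on all 4 arrays, with 3729.1 in the single ECS array, against 710.7 in the sham array. That ratio was 5.25-fold (log2 2.39). The 11 ECS array gave 2402.7, against 897.7 in the 10 ECS array, a ratio of 2.68-fold (log2 1.42). Plk2 was also well above the floor in the sham array and in the 10 ECS array, so its ratios owe nothing to the floor.

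Kif18a gave a low signal throughout, with 62.4 in the single ECS array, against 6.7 in the sham array, which is under the floor. The ratio was at least 5.2-fold (log2 2.38 with the floor, 9.31-fold without it). It gave 47.7 in the 11 ECS array, against 16 in the 10 ECS array, a ratio of 2.98-fold (log2 1.58, or 0.99 with 16 units added to all signals instead of a floor).

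Plk3 was dim as well, with 58.0 in the single ECS array, against 8.1 in the sham array, again under the floor. This gave a ratio of at least 4.83-fold (log2 2.27 with the floor, 7.16-fold without it). In the 11 ECS array Plk3 gave 44.5, against 25.2 in the 10 ECS array, and this ratio of 1.77-fold (log2 0.82) was the smallest of the 5. Both dim genes depend on the floor: with a floor of 50 units in place of 12, the first-ECS ratios became log2 0.32 for Kif18a and 0.21 for Plk3, and neither was then 2-fold. With that floor neither gene had a ratio for the 11th ECS, both of its arrays being under 50. In pooled tissue RNA, more cells making a transcript and more transcript per cell cannot be told apart, for any of the 5 genes.

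**Figure D2:**
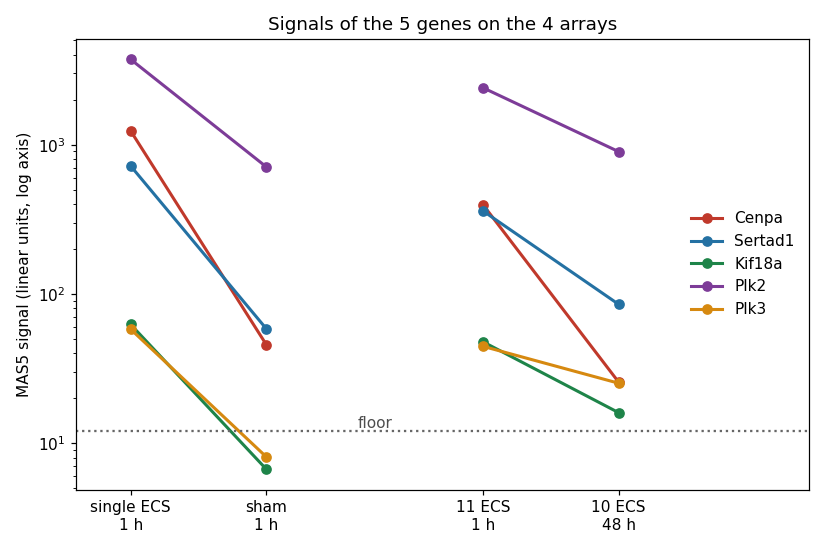
Signals on the deposited linear scale, drawn with a logarithmic axis, of Cenpa, Sertad1, Kif18a, Plk2 and Plk3 on the 4 arrays, 1 point per array of RNA pooled from 3 mice, with lines joining single ECS to sham and 11 ECS to 10 ECS. For every gene both 1 h ECS arrays lie above sham and 10 ECS, and the sham values of Kif18a and Plk3 lie under the dotted floor at 12 units.

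With the further ECS after repeated treatment, 4 of the 5 genes were at least 2-fold higher in the 11 ECS array than in the 10 ECS array, and 1.06% of all genes were (106 of 10046). The exception was Plk3. Against sham, the 11 ECS signals of all 5 genes were at least 2-fold higher (1.09% of all genes): 8.62-fold for Cenpa, 6.14-fold for Sertad1, at least 3.98-fold for Kif18a, at least 3.71-fold for Plk3 and 3.38-fold for Plk2. These ratios use the same arrays as the other comparisons and are not separate evidence.

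Every one of the 5 genes had a lower signal in the 11 ECS array than in the single ECS array, though not all by 2-fold. The selection used both of these arrays, so this too is given as a description. Cenpa was 3.13-fold lower (log2 -1.65), the 6th lowest ratio of 9971 genes, and Sertad1 was 2.01-fold lower. Those were the only 2 of the 5 past 2-fold, against 0.782% of all genes that were at least 2-fold lower (78 of 9971). Sertad1 sits just at the limit, with log2 -0.93 after quantile normalization of the arrays and -0.97 when 16 units are added to all signals instead of a floor. Plk2 was 1.55-fold lower, Kif18a 1.31-fold lower (log2 -0.39) and Plk3 lower by a log2 ratio of -0.38, and the median of all genes was 0.00.

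The response to the 11th ECS (11 ECS over 10 ECS) was smaller than the response to the first (single ECS over sham) for all 5 genes. Both responses are made of values that the selection used, so their difference is given as a description. On the log2 scale the difference of the 2 responses was -1.54 for Sertad1, at most -1.45 for Plk3, -0.97 for Plk2, -0.81 for Cenpa and at most -0.80 for Kif18a, where the median of all genes was 0.13. Sertad1 and Plk3 were at least 2-fold smaller, as were 1.13% of all genes (118 of 10450). That share includes genes lacking a ratio for either the first or the 11th ECS, the missing response being entered as unchanged. These calls moved with the setting: Plk2 also passed after median scaling (-1.13), quantile normalization (-1.06) and trimmed mean scaling (-1.06) of the arrays. Cenpa passed with 16 units added to all signals (-1.04) and with a floor of 50 units (-1.65). At that floor its sham and 10 ECS signals were both set to 50, so -1.65 is only its ratio of 11 ECS to single ECS. Plk3 no longer passed at that floor (-0.21), where it had no ratio for the 11th ECS and was entered as unchanged. The order depends on the scale. In signal units, the gain at the 11th ECS was 31.0% of the gain at the first for Cenpa, 38.7% for Plk3, 41.4% for Sertad1, 49.9% for Plk2 and 56.9% for Kif18a. Cenpa therefore had the smallest relative gain in units, while its log2 responses were closer, its 10 ECS signal also being lower than its sham signal.

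**Figure D3:**
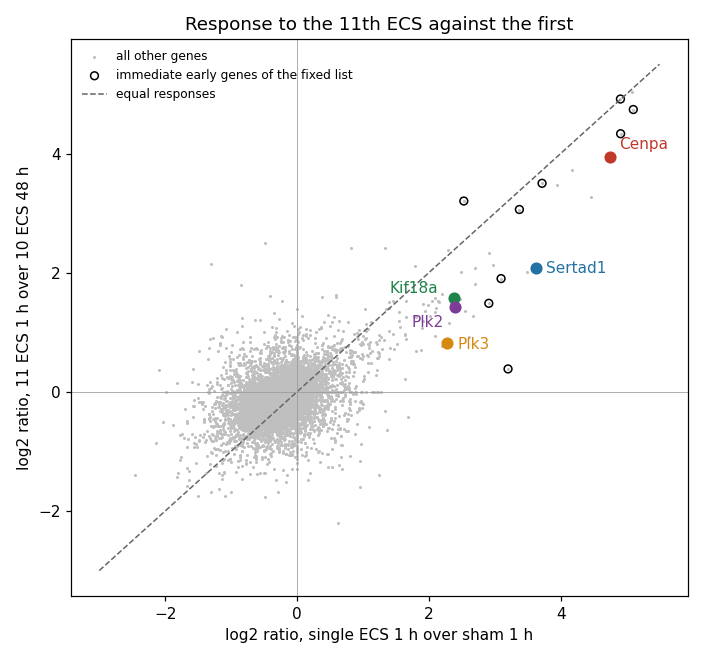
The log2 ratio of 11 ECS over 10 ECS (vertical) plotted against the log2 ratio of single ECS over sham (horizontal) for every gene, in grey, with the 5 genes in colour and 9 immediate early genes as open circles. All 5 genes lie below the dashed line of equal responses, Sertad1 and Plk3 farthest from it (-1.54 and at most -1.45).

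At 48 h after 10 ECS the genes did not share a direction relative to sham. Plk3 was at least 2.1-fold higher (25.2 in the 10 ECS array, against 8.1 in the sham array), and it was the 1 gene of the 5 past 2-fold, where 1.93% of all genes were 2-fold apart in either direction. That call rests on a sham value under the floor and is lost with 16 units added to all signals (log2 0.77). Sertad1 was 1.45-fold higher, Kif18a at least 1.33-fold higher and Plk2 1.26-fold higher, while Cenpa was 1.79-fold lower. Each sign was the same after median scaling, quantile normalization and trimmed mean scaling of the arrays.

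The other genes of the same families and structures are given by counts, to be read against the share of all genes. After the first ECS, 1.2% of all genes passed 2-fold upward and 2.89% downward, and in the 11 ECS comparison 1.06% did so upward and 1.21% downward, so in lists of this size a count of 0 or 1 is close to the share of all genes. Of the polo-like kinases, Plk1, the kinase that drives mitotic entry, gave 14.8 in the single ECS array and 19.0 in the sham array, with 19.5 in the 11 ECS array and 14.7 in the 10 ECS array. Plk4, the kinase of centriole duplication, gave 34.8 in the single ECS array and 39.5 in the sham array, and 30.1 in the 11 ECS array and 44.8 in the 10 ECS array. Neither was 2-fold apart in either 1 h comparison. Plk5 has no value here.

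Among 15 genes of the Sertad family and its partners, 1 was at least 2-fold higher in each 1 h comparison, and 0 were 2-fold lower. It was E2f3, a transcription factor of the E2F family named after its values were seen, with a low signal of 24.9 in the single ECS array, against 4.2 in the sham array, and 29.8 in the 11 ECS array, against 13.5 in the 10 ECS array. Sertad2 gave 162.9 in the single ECS array and 211 in the sham array, with 186.5 in the 11 ECS array and 178.7 in the 10 ECS array. Sertad3, which borders Sertad1 on chromosome 7, gave 44.6 in the single ECS array and 27 in the sham array, a ratio of 1.65-fold, and was lower in the 11 ECS array (34.5) than in the 10 ECS array (44.1). Cdk4 was 1.38-fold lower after the first ECS.

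For the centromere and kinetochore, 0 of 22 other genes with a value were at least 2-fold higher after the first ECS and 2 were lower (Itgb3bp, and Pmf1, named after its values were seen), with a median log2 ratio of -0.22 where that of all genes was -0.24. In the 11 ECS comparison, 1 of 20 was higher and 0 were lower, with a median of -0.11, as over all genes. It was Spc25, named after its values were seen, with 24.1 in the 11 ECS array, against 7.8 in the 10 ECS array, under the floor. Cenpx, a centromere gene, gave 60 in the single ECS array and 47.4 in the sham array, and 24.7 in the 11 ECS array, against 49 in the 10 ECS array. Mis12, a kinetochore component, gave 70.2 in the single ECS array, against 131.2 in the sham array, and Zw10, which acts in the spindle checkpoint, gave 133.5 in the single ECS array, against 248.3 in the sham array. Itgb3bp, a gene of the inner kinetochore, gave 25.2 in the single ECS array, against 50.6 in the sham array. Of the mitotic kinesins other than Kif18a, 0 of 6 were at least 2-fold higher in either 1 h comparison, and 1 was lower after the first ECS, Kif11, the motor that separates spindle poles, again named after its values were seen, at 10.7 in the single ECS array, under the floor, against 27.1 in the sham array. Kif2a, a microtubule depolymerase also active in neurons, gave 548.6 in the single ECS array, against 859.7 in the sham array, and 665.5 in the 11 ECS array, against 747.3 in the 10 ECS array.

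No proliferation marker was 2-fold higher in single ECS over sham or in 11 ECS over 10 ECS. In 11 ECS over sham 1 of 25 with a value was, against 1.09% of all genes. It was Nusap1, named after its values were seen, with 26.9 in the 11 ECS array, against 12 in the sham array, at the floor. In 10 ECS over sham 1 of 25 with a value was 2-fold higher, as were 73 of 10203 over all genes. It was Pbk, with 58 in the 10 ECS array, against 25.3 in the sham array. The list median there was log2 0.06, against -0.14 over all genes. Of 24 with a value, 0 were at least 2-fold higher after the first ECS and 2 were lower, Mcm2 and, named after its values were seen, Cdc20 (median log2 -0.21), and of 26 in the 11 ECS comparison 0 were 2-fold apart (median -0.12). Mcm2, a subunit of the replicative helicase, gave 34.1 in the single ECS array, against 84.9 in the sham array. Mki67, the usual marker of cycling cells and named here after its values were seen, gave 4.7 in the single ECS array, under the floor, against 17.3 in the sham array, and 22.2 in the 11 ECS array, against 23.6 in the 10 ECS array. The summed signal of the 28 markers was 2716.7 in the single ECS array and 3181.8 in the sham array, and 2752 in the 11 ECS array and 2913 in the 10 ECS array. Most of each sum was Pcna and Pttg1, named after their values were seen, at 915.5 and 971.9 in the single ECS array. In the sham array they gave 844.8 and 1173.7. Above the floor were 21 of the 28 in the single ECS array, 22 in sham, 23 in 11 ECS and 25 in 10 ECS. Changes in markers near the floor hardly enter these sums.

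The immediate early genes, transcripts that neurons make within minutes of activity, had the same direction as the 5 genes in both 1 h comparisons. All 9 of them were at least 2-fold higher after the first ECS (median log2 3.37) and 8 of 9 in the 11 ECS comparison (median 3.20). In 10 ECS over sham their median log2 ratio was -0.75, against -0.14 over all genes, while of the 5 genes only Cenpa was lower. The list was drawn up with earlier results of these arrays known, so it gives the scale of the response and no support. Of 10 genes that encode known or proposed targets of Plk2 and Plk3 or kinases that act with them at synapses, 1 was at least 2-fold higher after the first ECS, the transcription factor gene Jun (2683.8 in the single ECS array, against 1094.3 in the sham array), and 0 of 10 in the 11 ECS comparison.

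**Figure D4:**
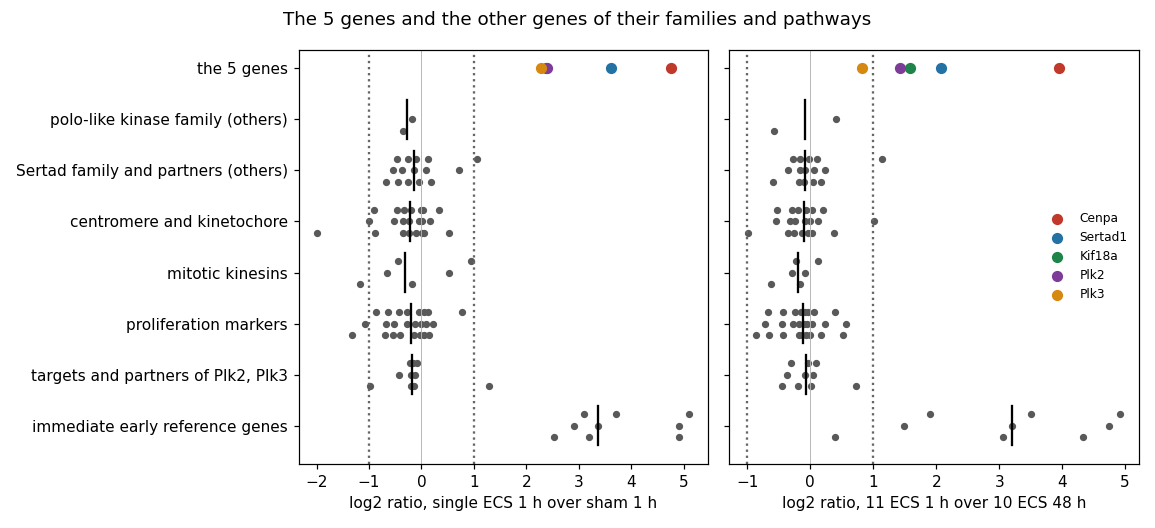
The log2 ratios of single ECS over sham (left) and 11 ECS over 10 ECS (right) for the 5 genes in colour and for the other genes of 7 lists in grey, 1 point per gene, with the median of each list as a vertical bar and dotted lines at 2-fold in both directions. The 5 genes lie to the right of the 2-fold line, except Plk3 at 0.82 in the right panel, and nearly all other polo-like kinase, Sertad, centromere, kinesin and proliferation genes lie between the dotted lines.

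Which genes behaved most like each of the 5 was measured as the Euclidean distance over 3 log2 ratios to sham, those of single ECS, 11 ECS and 10 ECS, among 7790 genes. The 3 ratios share the sham array and are made of values that the selection used. Genes near the 5 therefore had to be higher 1 h after ECS as well. Ratios of Kif18a and Plk3, and of Homer1 and Fosb near Cenpa, rest on signals under the floor, so the distances are descriptions. Cenpa was nearest to Arc, an activity-induced synaptic gene, at a distance of 0.44, followed by Homer1 (0.91) and Fosb (1.04). Homer1 was under the floor in the sham and 10 ECS arrays (3.3 and 5.5 units), and its distance without the floor was 3.01. Arc gave 3569.6 in the single ECS array, against 118.7 in the sham array, and 1360.1 in the 11 ECS array, against 67.5 in the 10 ECS array.

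Sertad1 was nearest to Ptgs2, which encodes cyclooxygenase-2, at 0.65, then to Egr4 (0.78) and Frmd6 (0.97). Plk2 lay closest of all to Rgs2, a regulator of G-protein signalling, at 0.08, and then to Kif18a (0.25) and Bdnf (0.35). Rgs2 gave 2089.8 in the single ECS array, against 414.3 in the sham array, and 1436.9 in the 11 ECS array, against 509.2 in the 10 ECS array. Kif18a had Rgs2 at 0.23, Bdnf at 0.25 and Plk2 at 0.25. These distances of Kif18a were set by the floor: with the deposited sham signal of 6.7 they became 1.67 to Rgs2, 1.60 to Bdnf and 1.64 to Plk2, so no likeness is read from them. Plk3 was nearest to Ier5 (0.58), Pim1 (0.58) and Ccn1 (0.61), and without the floor these distances were 1.13, 1.16 and 1.57.

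**Figure D5:**
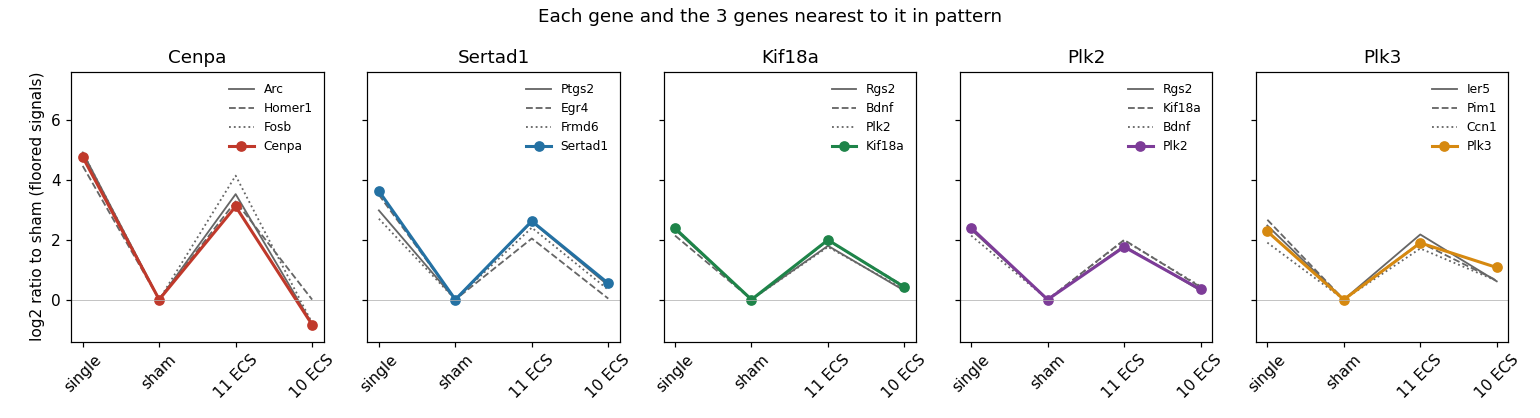
The log2 ratio to sham (floored signals) of each of the 5 genes, in colour, and of the 3 genes nearest to it in grey, over single ECS, sham (0 by construction), 11 ECS and 10 ECS. Cenpa follows Arc at a distance of 0.44 and Plk2 follows Rgs2 at 0.08, while the curves of Kif18a, Plk3 and Homer1 rest on sham signals set to the floor.

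The genes beside the 5 in the genome were read from the RefSeq table. Bdnf, which encodes brain-derived neurotrophic factor, is the next protein-coding gene beside Kif18a on chromosome 2. Bdnf gave 2069.4 in the single ECS array, against 471.2 in the sham array (4.39-fold), and 1850.9 in the 11 ECS array, against 640.4 in the 10 ECS array (2.89-fold). The gene on the other side of Kif18a, the potassium channel gene Kcna4, gave 67.1 in the single ECS array and 74.1 in the sham array, and 98 in the 11 ECS array and 76.7 in the 10 ECS array. Mettl15, which overlaps Kif18a, has no value here. Neither neighbour of Cenpa was 2-fold apart in a 1 h comparison: Slc35f6 gave 120.2 in the single ECS array and 111.5 in the sham array, and Dpysl5 gave 63 in the single ECS array and 45.7 in the sham array. Tctex1d4, which overlaps Plk3, gave 13 in the single ECS array, against 3.7 in the sham array, and 3.5 in the 11 ECS array, against 18.9 in the 10 ECS array. Its sham and 11 ECS signals were under the floor and the others little above it, so no comparison with Plk3 is read from them. The neighbours of Plk2 have no value here.

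Markers of other cells were read beside these results. All 7 GC markers with a value were above the floor on every array, and their summed signal was 4870.5 in the single ECS array and 6419.2 in the sham array, and 2750.4 in the 11 ECS array and 3654.6 in the 10 ECS array. Most of each sum was Calb1 and Dsp. Calb1, Dsp, Tdo2, Il1r1 and Lct were lower in both 1 h comparisons, while Prox1 and Stxbp6 were higher by less than 2-fold. Calb1, Prox1 and Stxbp6 are named after their values were seen. The study reports lower Calb1, Tdo2, Dsp and Il1r1 after repeated ECS with NeuN unaffected, so the sum is no measure of GC number. The sums of microglia markers ran between 2039.6 and 2196.2 and those of astrocyte markers between 9990.6 and 11342.7 over the 4 arrays. Within the astrocyte list Gfap moved by more than 2-fold, with 135 in the 11 ECS array, 114.1 in the 10 ECS array and 49.3 in the sham array, and 45.6 in the single ECS array. Endothelial markers summed to between 425.7 and 494.2, oligodendrocyte markers to between 6464.4 and 7582.5, interneuron markers to between 4485.5 and 5051 and CA3 and CA1 pyramidal neuron markers to between 972.9 and 1211. Within the endothelial list Kdr gave 27.7 in the single ECS array and 42.6 in the sham array, and 54.8 in the 11 ECS array and 73.1 in the 10 ECS array. All markers of these 6 cell types with a value were above the floor on every array. The sum of 3 choroid plexus markers was 265.2 in the single ECS array and 156.2 in the sham array, and 116 in the 11 ECS array and 146.7 in the 10 ECS array. It was highest in the array where the 5 genes were highest, and most of that sum was Ttr, at 215.9 in the single ECS array and 67.2 in the sham array. The other markers of that tissue ran the other way, Kl with 38.4 in the single ECS array and 74.3 in the sham array, and Folr1 with 10.9 in the single ECS array and 14.7 in the sham array, so the list median was log2 -0.29. The part of these markers in the ratios of the 5 genes was not tested.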

How the data were processed

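Gene expression was measured on 4 one-colour arrays, 1 per group, each from 100 ng of RNA pooled from 3 mice. The deposited values are MAS5 intensities on a linear scale, made by the authors with the MAS5 software, with version and scaling target not given in the sources used here. Median signals were 56.3 (single ECS), 69.3 (sham), 56.7 (11 ECS) and 62.4 (10 ECS). No further scaling was applied. Of 22626 probe sets, 20380 carried 1 gene symbol, 691 several and 1555 none, and those with 1 were used. Where a gene had several such probe sets, the one brightest on average stood for it. Signals under the floor of 12 were set to 12 and log2 ratios were taken in Python 3.11.15 with numpy 2.4.6 and pandas 2.3.3. A gene under the floor on both arrays of a comparison had no ratio in it. In the difference of the responses, a gene with a ratio in only the other comparison was entered as unchanged here. With 1 array per group no test was run, and 2-fold is a size and not a significance level. The number of arrays limits the precision. The scripts were tested on simulated data. The 5 genes, and the lists, were chosen with earlier results of these data known. Named beside them were their family members, of each list up to 4 genes with the ratios farthest from 0 and at least 48 units on the brighter array, the 3 genes nearest in pattern and the bordering genes. Genes named outside this rule are marked as named after their values were seen. Bordering genes and promoter windows came from RefSeq tables of GRCm38.p6. Columns mapped to no sample numbered 0.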

Additional observations from a re-analysis of the deposited data

How the results depend on the processing

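All comparisons were recomputed under 7 alternatives: a floor of 50, no floor with 16 units added, median scaling, quantile normalization, scaling to a trimmed mean, the median over probe sets, and only genes with a mean of at least 50. Of 191 recomputed log2 values of the 5 genes, 172 moved by less than a limit, 19 moved by more and 0 changed sign. These values are ratios and differences of the responses. The limit for a ratio was the spread between probe sets in its comparison. For a difference of the responses it was the spread in single ECS over sham, times the square root of 2. The 172 include 30 under the median over probe sets and 18 under the mean of at least 50, which could not move. Each of the 5 genes has 1 probe set, and leaving out genes changes no ratio of those kept. With the floor of 50, 3 of the 5 genes were at least 2-fold higher in single ECS over sham, 3 in 11 ECS over sham, and 0 were 2-fold apart in 10 ECS over sham. Over all genes this floor gave 59 at least 2-fold higher in 11 ECS over 10 ECS (106 with the floor of 12), 56 in 11 ECS over sham (111), 43 apart in 10 ECS over sham (197), 31 lower in 11 ECS over single ECS (78) and 16 with a smaller second response (118). With genes of a mean of at least 50, which leaves out Kif18a and Plk3, the 5 genes gave 3, 3 and 0 in the same comparisons and 1 with a smaller second response, and all genes gave 65, 66, 49, 38 and 20. With 16 units added, 0 of the 5 genes were apart in 10 ECS over sham and 1 in 11 ECS over single ECS, and all genes gave 83 and 48. Sertad1 also fell short in 11 ECS over single ECS, leaving 1 of the 5, after quantile normalization and after trimmed mean scaling. Scaling raised the count of all genes at least 2-fold higher in single ECS over sham (122) to 215 by medians and 189 by quantiles, that in 11 ECS over sham (111) to 205, 194 and, by trimmed means, 171, and that of smaller second responses (118) to 184 by medians. Median scaling moved the median gene in single ECS over sham to 0.05, from -0.24. Chosen after seeing the data, the pattern distances were recomputed without a floor: of 15, 8 moved by more than the spread between probe sets, among them all 3 of Kif18a and all 3 of Plk3. Differences among dim genes are limited by signal over background. No paired analysis was possible because each group has 1 array. Leaving out a replicate was not possible for the same reason.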
